A study of Homo sapiens with 9 samples.

Results

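The genes described here encode the lamins and their partners at the inner nuclear membrane: LMNA, LMNB1, LMNB2, LBR, TMPO, EMD, BANF1, SUN1 and SUN2. They were taken by gene name from a count table of 58735 genes in OVCAR4 cells, an established human ovarian serous adenocarcinoma line. All 9 were found, and all 9 were among the 16928 genes with enough counts to be tested. RNA-seq covered 3 groups of 3 biological replicates of the same wild-type line, each given shRNA virus and kept under puromycin selection for 3 days. The scr control cells received a scramble shRNA, and the other groups received shMPZL3 #1 or shMPZL3 #2, which both target MPZL3, a membrane protein of the immunoglobulin superfamily. Because these are bulk libraries, fewer cells with a transcript and less of it per cell cannot be told apart in these counts.

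Lamins are intermediate filament proteins that form a meshwork under the inner nuclear membrane. B-type lamins stay attached to the membrane, whereas A-type lamins are also found in the nucleoplasm, and membrane proteins such as LBR, LAP2 and emerin tether the meshwork, chromatin or both. SUN proteins cross the inner membrane and join the lamina to the cytoskeleton. In dividing cells the whole structure is taken apart at mitosis and rebuilt afterward, and loss of lamin B1 is widely used as a marker of senescent cells.

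LMNB1, TMPO and LBR fell together with both shRNAs, while LMNA was not called and SUN2 rose with shMPZL3 #1. For that reason, sequences before a transcript start of these 5 genes are shown. They come from RefSeq on GRCh38.p14, run from 5′ to 3′ toward the start of the first listed transcript, and stop before any exon of the gene in GENCODE release 29, so that TMPO lacks the 61, LBR the 104 and SUN2 the 2 bases nearest the start. LMNB1 is chr5:126776373-126776622 (plus strand), TMPO chr12:98515323-98515511 (plus), LBR chr1:225428926-225429071 (minus), LMNA chr1:156082323-156082572 (plus) and SUN2 chr22:38756001-38756248 (minus). The SUN2 stretch lies inside the SUN2 gene (38734725 to 38794143, minus strand), before an internal start and not before the gene's 5′ end. Capitals mark the letters CCAAT or ATTGG, the NF-Y box on either strand.
LMNB1: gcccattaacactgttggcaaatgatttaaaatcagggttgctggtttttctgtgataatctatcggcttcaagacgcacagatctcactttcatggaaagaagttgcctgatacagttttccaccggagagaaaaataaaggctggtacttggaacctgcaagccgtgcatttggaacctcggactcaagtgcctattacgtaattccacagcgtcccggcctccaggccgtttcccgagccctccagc
TMPO: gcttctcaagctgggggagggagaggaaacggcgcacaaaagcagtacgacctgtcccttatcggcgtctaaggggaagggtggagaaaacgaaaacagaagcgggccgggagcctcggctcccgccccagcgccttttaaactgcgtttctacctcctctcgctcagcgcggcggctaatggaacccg
LBR: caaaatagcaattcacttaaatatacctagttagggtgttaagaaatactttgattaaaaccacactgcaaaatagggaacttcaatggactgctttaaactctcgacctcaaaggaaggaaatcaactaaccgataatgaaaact
LMNA: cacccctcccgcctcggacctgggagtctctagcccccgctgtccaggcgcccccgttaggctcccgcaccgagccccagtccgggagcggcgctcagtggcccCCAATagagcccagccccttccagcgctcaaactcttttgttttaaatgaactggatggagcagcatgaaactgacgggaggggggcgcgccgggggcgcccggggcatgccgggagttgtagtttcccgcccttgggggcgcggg
SUN2: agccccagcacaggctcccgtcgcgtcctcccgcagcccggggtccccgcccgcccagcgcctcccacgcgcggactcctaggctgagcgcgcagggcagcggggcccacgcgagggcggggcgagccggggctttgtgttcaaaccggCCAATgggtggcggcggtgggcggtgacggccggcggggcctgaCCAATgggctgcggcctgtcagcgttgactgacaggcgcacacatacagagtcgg
No capitals appear in the LMNB1, TMPO and LBR stretches. In the full window of 250 bases TMPO has 2 matches, which begin 15 and 47 bases before the start and lie in the part not printed, and a second start of LMNB1 has 1 match in its own window at chr5:126776886-126777135, all of which is exon of a longer LMNB1 transcript. In the window before the first start, LMNA has 1 match and SUN2 and EMD have 2 each, and the windows of LBR, LMNB2 and BANF1 have none. The BANF1 window, chr11:66002253-66002502, lies inside the gene, and all 250 bases are BANF1 exon. Among the windows of all genes in the table, 32.0% of 35116 hold at least 1 match. The letters TTTGAA, the CHR element, were found on either strand in a window of LMNB2 and in one of SUN2, against 13.3% of all windows. Of the 9 genes, 8 had an entry. SUN1 had none. A match of letters is a description of the sequence and does not show that a factor binds there.

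The libraries held 15040102 to 27835841 counts, and replicates differed from each other by more than counting noise (chi-square per gene of 3.08 to 23.2). MPZL3 lay below every scr control library in all 6 knockdown libraries. It fell further with shMPZL3 #1 (log2 fold change -2.17, adjusted p = 3.73e-07) than with shMPZL3 #2 (-0.89, adjusted p = 0.000562). Defining epithelial markers were abundant, with 3381 to 7202 counts of PAX8 and 5905 to 11139 of EPCAM per library, whereas WT1 (3 to 13 counts) and MSLN (46 to 100) were low. Of 7 markers of other cells, DCN was at 0 and PTPRC, CD3E, CD68 and PECAM1 had at most 26 counts, while CDH5 had 50 to 200 and COL1A1 173 to 924. Of 8 serous markers tested, 2 were higher and 1 lower with shMPZL3 #1 and 0 were called with shMPZL3 #2, where KRT7 alone had an unadjusted p under 0.05. Over all genes tested, 16.8% were higher and 15.3% lower with shMPZL3 #1, and 9.36% and 5.8% with shMPZL3 #2. Of 4 markers of other cells tested, CDH5 rose with shMPZL3 #2 (1.05, adjusted p = 0.00282) and COL1A1, a mesenchymal collagen, rose with both shRNAs, from 238 to 297 normalized counts in scr control to 572 to 874 with shMPZL3 #1 and 331 to 486 with shMPZL3 #2, and their part in the results below was not tested. COL1A1 lost its call with shMPZL3 #2 without scr control replicate 2 or 3 or shMPZL3 #2 replicate 1 or 3 (adjusted p = 0.0637 to 0.124). All 9 lamina genes were well covered, from 717 normalized counts in the lowest library of LBR to 13193.5 in the highest of LMNA.

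When the 6 knockdown libraries were taken as 1 group against the 3 of scr control, LBR, TMPO and LMNB1 fell and none of the 9 genes rose. That is 3 of 9 lower, where 6.4% of all genes tested were lower, and 0 of 9 higher, where 9.36% were higher. DESeq2 also gave 0 higher, and at an unadjusted p under 0.05 SUN2 alone was higher. With shMPZL3 #1 alone, 5 of 9 fell (15.3% of all genes) and SUN2 was the 1 that rose (16.8%). With shMPZL3 #2 alone, 3 of 9 fell (5.8%) and 0 rose (9.36%), with 0 higher also by DESeq2 and at an unadjusted p under 0.05. LMNB1, TMPO and LBR were lower with both shRNAs, as were 3.53% of all genes, and 0 of 9 were higher with both, against 6.52%. Both comparisons use the same scr control libraries and are therefore not independent. The median log2 fold change of the 9 genes was -0.58 with shMPZL3 #1 and -0.09 with shMPZL3 #2, beside 0.01 and 0.00 over all genes tested. All 6 knockdown libraries lay below all 3 scr control libraries for LMNB1, LBR, TMPO and BANF1, as for 11.0% of all genes, and for none of the 9 did they all lie above, as for 11.8% of all genes.

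**Figure D1:**
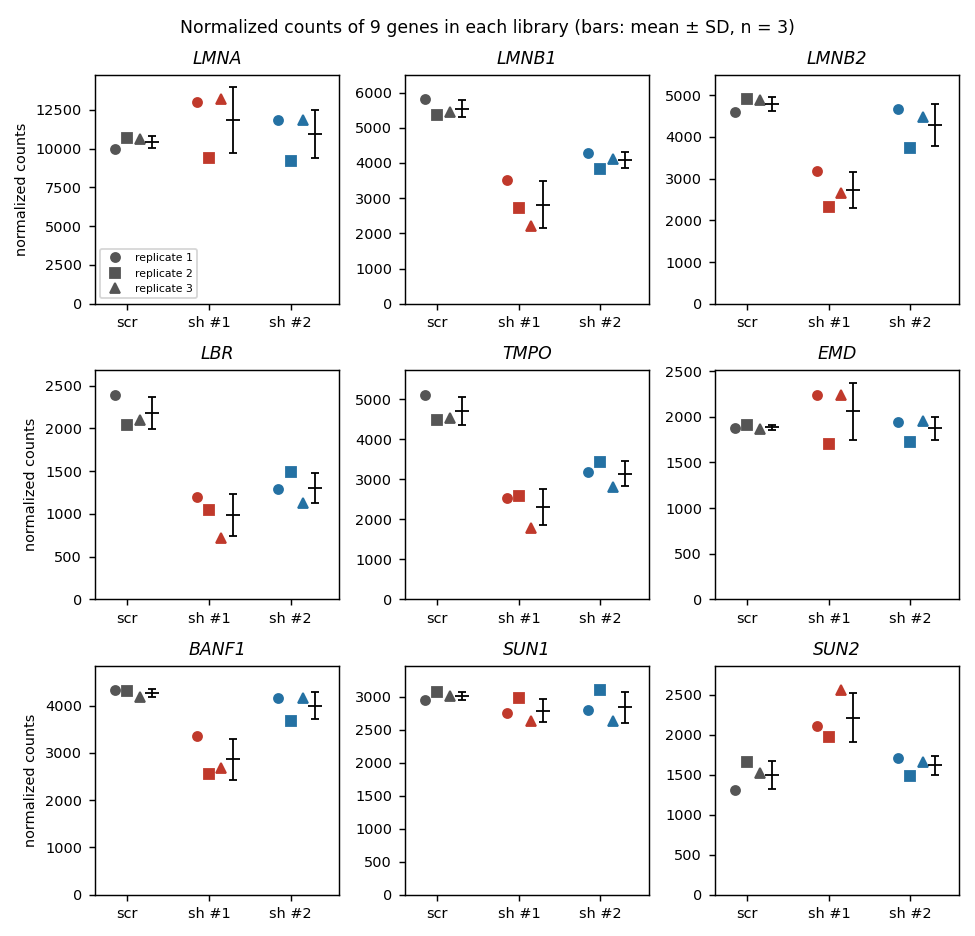
Normalized counts (scaled to a common effective library size, the mean of all 9; vertical axis, from 0) of each of the 9 genes in the 3 scr control, 3 shMPZL3 #1 and 3 shMPZL3 #2 libraries, with the replicate shown by the marker and bars for the mean ± SD (n = 3). LMNB1, LBR and TMPO sit below scr control in all 6 knockdown libraries, and LMNA, EMD and SUN1 overlap scr control.

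LMNB1 (ENSG00000113368, chromosome 5, 126776623 to 126837020, plus strand) encodes lamin B1. It had 5815, 5361 and 5443 normalized counts in the scr control libraries (replicates 1 to 3, as for every gene below), 3518, 2725 and 2195 in those of shMPZL3 #1, and 4290.2, 3835 and 4113 in those of shMPZL3 #2. Neither knockdown group overlapped scr control, the shMPZL3 #2 libraries lay between the other groups, and shMPZL3 #1 replicate 3 was lowest. LMNB1 fell by 0.98 on the log2 scale with shMPZL3 #1 (95% interval -1.26 to -0.70, adjusted p = 5.16e-05) and by 0.44 with shMPZL3 #2 (-0.72 to -0.17, adjusted p = 0.0303). These adjusted p-values, and all others, come from edgeR's quasi-likelihood test with Benjamini-Hochberg adjustment over all 16928 genes. In the grouped comparison it fell by 0.68 (adjusted p = 0.0197), and the two-sided exact permutation test over libraries gave p = 0.0238, where 0.0119 is the smallest possible for 6 against 3. The shMPZL3 #2 call rested on single libraries: the adjusted p was 0.106, 0.0719 and 0.0642 without scr control replicates 1, 2 and 3, and 0.0645 and 0.106 without shMPZL3 #2 replicates 2 and 3. The grouped call was also lost without any 1 of the scr control replicates, at 0.0980, 0.0652 and 0.0582.

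LMNB2 (ENSG00000176619, chromosome 19, 2427638 to 2456996, minus strand) encodes lamin B2, the other B-type lamin. Its normalized counts were 4590.0, 4908 and 4875 in scr control, 3178, 2318 and 2660.4 with shMPZL3 #1, and 4669.8, 3726 and 4469 with shMPZL3 #2. The shMPZL3 #1 libraries stood apart from all others, and shMPZL3 #2 overlapped scr control through its replicate 1. LMNB2 fell by 0.82 with shMPZL3 #1 (adjusted p = 9.38e-05). With shMPZL3 #2 the log2 fold change was -0.16 (95% interval -0.41 to 0.09, adjusted p = 0.393), and the grouped value was -0.45 (adjusted p = 0.115). TIMM13, which overlaps LMNB2 on the same strand and held 9090 counts over the 9 libraries beside 35051 for LMNB2, changed in a like way with shMPZL3 #1 (-0.62, adjusted p = 0.00129). How reads in the shared stretch were divided was not tested.

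LMNA (ENSG00000160789, chromosome 1, 156082573 to 156140089, plus strand) encodes lamins A and C, which gene-level counts do not separate. It had 9999, 10687 and 10609.7 normalized counts in scr control, 12980.4, 9398 and 13193.5 with shMPZL3 #1, and 11842, 9188 and 11817 with shMPZL3 #2. In each knockdown group replicates 1 and 3 lay above every scr control library and replicate 2 below. The log2 fold change was 0.18 with shMPZL3 #1 (95% interval -0.09 to 0.46, adjusted p = 0.295) and 0.07 with shMPZL3 #2 (-0.20 to 0.34, adjusted p = 0.759). Without shMPZL3 #1 replicate 2 the former was 0.33 (adjusted p = 0.0391), so that this 1 library decided the call.

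Within a library, the ratio of LMNB1 to LMNA counts does not depend on how libraries are scaled. Its mean was 0.532 ± 0.0432 in scr control (SD, n = 3, as for the values that follow), 0.242 ± 0.0666 under shMPZL3 #1 and 0.376 ± 0.0366 under shMPZL3 #2. Scr control libraries ranged from 0.502 to 0.582, shMPZL3 #1 libraries from 0.166 to 0.290 and shMPZL3 #2 libraries from 0.348 to 0.417, so no groups overlapped. The ratio of LMNB1 to LMNB2 was 1.16 ± 0.0945 in scr control, 1.04 ± 0.186 with shMPZL3 #1, which overlapped it, and 0.956 ± 0.0635 with shMPZL3 #2, which lay below it in all 3 libraries. These ratios were not tested.

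Expressed per kilobase of exon (CPM per kilobase), LMNA made up 36.9 to 39.1% of the summed level of the lamin genes in scr control libraries, 53.3 to 63.3% in those of shMPZL3 #1 and 43.0 to 46.4% in those of shMPZL3 #2. The share of LMNB1 was 37.8 to 41.3%, 20.3 to 29.7% and 31.0 to 34.5% in the same order. That of LMNB2 was 21.8 to 23.1%, 16.4 to 17.1% and 22.4 to 23.0%. The shares of LMNA and LMNB1 did not overlap between any pair of groups, and the share of LMNB2 overlapped between scr control and shMPZL3 #2 only. The summed lamin level itself averaged 190 ± 0.990 CPM per kilobase in scr control, 145 ± 21.7 under shMPZL3 #1 and 169 ± 18.0 under shMPZL3 #2, and was lower in every knockdown library than in every scr control library.

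**Figure D2:**
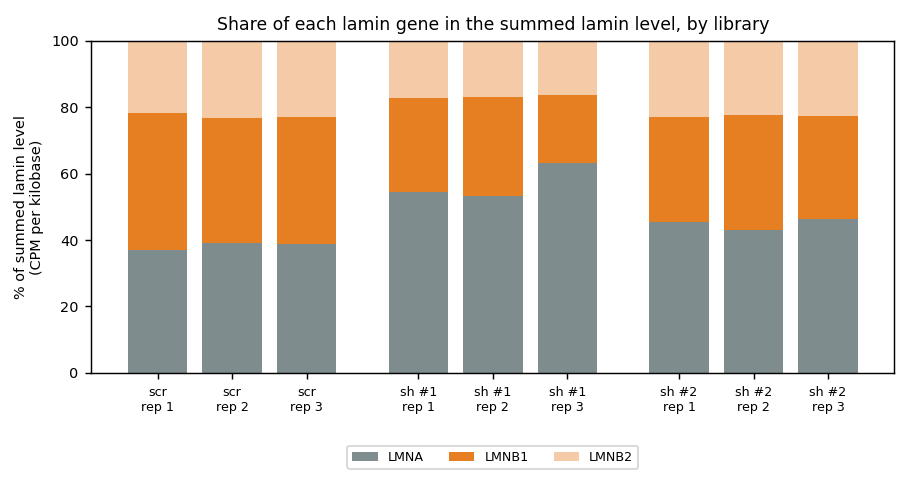
Share of LMNA, LMNB1 and LMNB2 in the summed lamin level of each library (percent of CPM per kilobase; each bar is 1 library). LMNA takes 36.9 to 39.1% in scr control and 53.3 to 63.3% with shMPZL3 #1, and the LMNB1 share is smallest in shMPZL3 #1 replicate 3, at 20.3%.

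LBR (ENSG00000143815, chromosome 1, 225401502 to 225428925, minus strand) encodes the lamin B receptor, a membrane protein that binds B-type lamins and heterochromatin and also has sterol reductase activity. It had 2396, 2044 and 2095 normalized counts in scr control, 1202, 1049 and 717 with shMPZL3 #1, and 1296, 1488 and 1133 with shMPZL3 #2. All knockdown libraries lay far below scr control, and the knockdown groups overlapped each other. LBR fell by 1.14 on the log2 scale with shMPZL3 #1 (95% interval -1.46 to -0.82, adjusted p = 5.00e-05), the largest fall among the 9 genes, and by 0.74 with shMPZL3 #2 (-1.06 to -0.42, adjusted p = 0.00309). The grouped fall was 0.92 (adjusted p = 0.00345, two-sided exact permutation p = 0.0119). It was called under all 16 alternatives tried.

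TMPO (ENSG00000120802, chromosome 12, 98515512 to 98550379, plus strand) encodes the LAP2 proteins, of which the membrane forms bind B-type lamins and BANF1, and LAP2α binds A-type lamins in the nucleoplasm. Its normalized counts were 5113, 4482 and 4536 in scr control, 2535, 2579 and 1779.9 with shMPZL3 #1, and 3183, 3417 and 2809 with shMPZL3 #2. The 3 groups did not overlap, and shMPZL3 #1 replicate 3 was lowest here too. TMPO fell by 1.04 with shMPZL3 #1 (95% interval -1.31 to -0.76, adjusted p = 2.85e-05), by 0.59 with shMPZL3 #2 (-0.86 to -0.32, adjusted p = 0.00509) and by 0.79 in the grouped comparison (adjusted p = 0.00588, two-sided exact permutation p = 0.0119). The library kit did not keep the strand, but the antisense gene TMPO-AS1 held only 1060 counts beside 29394 for TMPO, and processed pseudogenes of TMPO held at most 94. Which LAP2 isoforms fell cannot be told apart in gene-level counts.

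BANF1 (ENSG00000175334, chromosome 11, 66002079 to 66004149, plus strand) encodes the small DNA-binding protein that links chromatin to LEM-domain proteins such as emerin and LAP2. It had 4327, 4301 and 4173 normalized counts in scr control, 3361, 2547 and 2677.5 with shMPZL3 #1, and 4158, 3676 and 4171 with shMPZL3 #2. The shMPZL3 #1 libraries were clearly lowest, whereas the highest shMPZL3 #2 library missed the lowest scr control library by less than 2 counts. BANF1 fell by 0.58 with shMPZL3 #1 (adjusted p = 0.000740), while the shMPZL3 #2 value was -0.09 (95% interval -0.32 to 0.14, adjusted p = 0.613). The grouped value, -0.31, missed the threshold (adjusted p = 0.172). EIF1AD, on the opposite strand, shares part of its position and held 5828 counts beside 33196.

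EMD (ENSG00000102119, chromosome X, 154379197 to 154381523, plus strand) encodes emerin, a LEM-domain protein that binds lamin A. It had 1872, 1916 and 1867 normalized counts in scr control, 2235, 1697 and 2243 with shMPZL3 #1, and 1945, 1725 and 1950.4 with shMPZL3 #2. As for LMNA, replicate 2 of each knockdown group lay below scr control and the other replicates above. The log2 fold change was 0.13 with shMPZL3 #1 (95% interval -0.11 to 0.36, adjusted p = 0.413) and -0.01 with shMPZL3 #2 (-0.24 to 0.23, adjusted p = 0.970). Across the 9 libraries the log2 levels of EMD and LMNA had a Pearson r of 0.95.

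SUN2 (ENSG00000100242, chromosome 22, 38734725 to 38794143, minus strand) and SUN1 (ENSG00000164828, chromosome 7, 816615 to 896435, plus strand) encode the inner membrane components of the LINC complex, which couples lamina and cytoskeleton. SUN2 had 1312, 1661 and 1518 normalized counts in scr control, 2111, 1971 and 2557 with shMPZL3 #1, and 1713, 1486 and 1656 with shMPZL3 #2. The shMPZL3 #1 libraries stood above all others, with replicate 3 highest, and shMPZL3 #2 overlapped scr control. SUN2 rose by 0.56 with shMPZL3 #1 (95% interval 0.32 to 0.81, adjusted p = 0.00158). With shMPZL3 #2 the log2 fold change was 0.11 (-0.14 to 0.36, adjusted p = 0.570), and the grouped value of 0.36 was not called (adjusted p = 0.133).

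SUN1 had 2954.5, 3079 and 3016 normalized counts in scr control, 2756, 2987 and 2634 with shMPZL3 #1, and 2795, 3101 and 2639 with shMPZL3 #2. The groups overlapped, and no call was made with shMPZL3 #1 (-0.11, 95% interval -0.31 to 0.09, adjusted p = 0.402) or shMPZL3 #2 (-0.08, -0.29 to 0.12, adjusted p = 0.595). The ratio of SUN2 to SUN1 counts within a library averaged 0.496 ± 0.0481 in scr control (SD, n = 3), 0.799 ± 0.158 under shMPZL3 #1 and 0.573 ± 0.0817 under shMPZL3 #2. All shMPZL3 #1 libraries exceeded scr control in this ratio, and the shMPZL3 #2 libraries overlapped it. SUN2 shares its position with GTPBP1 on the opposite strand (9255 counts beside 16206), which itself was higher with shMPZL3 #1 (0.29, adjusted p = 0.0412) and shMPZL3 #2 (0.40, adjusted p = 0.0167). The GTPBP1 call was lost without scr control replicate 1 or 2 or shMPZL3 #2 replicate 1 in both comparisons, and without replicate 3 of the shRNA compared. It was also lost with shMPZL3 #1 without scr control replicate 3 or a filter. SUN2 also overlaps DNAL4 on the same strand (4068 counts), and the part of these genes in the SUN2 value was not tested. GET4, with 2215 counts, overlaps SUN1, which had 25811.

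**Figure D3:**
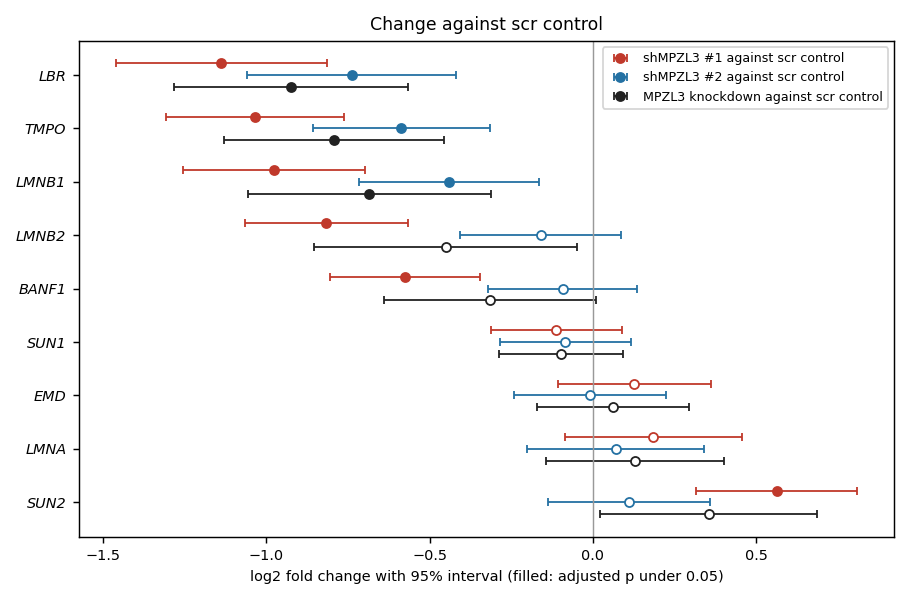
Log2 fold change against scr control (horizontal axis) with its 95% interval for each gene, for shMPZL3 #1, shMPZL3 #2 and both grouped as MPZL3 knockdown; filled points have an adjusted p under 0.05. LBR, TMPO and LMNB1 are filled on the left for all 3 comparisons, LMNB2 and BANF1 for shMPZL3 #1 only, and SUN2 is filled on the right for shMPZL3 #1.

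The shRNAs were also compared with each other directly. With shMPZL3 #2, 4 of the 9 genes were higher than with shMPZL3 #1 and 1 was lower, where 7.56% of all genes were higher and 7.56% lower. The log2 difference was 0.66 for LMNB2 (adjusted p = 0.00132), 0.54 for LMNB1 (0.0110), 0.48 for BANF1 (0.00636) and 0.45 for TMPO (0.0262), and -0.45 for SUN2 (0.0149), so each of these lay nearer to scr control with shMPZL3 #2. For LBR the difference of 0.40 was not called (95% interval 0.08 to 0.72, adjusted p = 0.0872). Under 3 of 15 alternatives it was called: with a replicate block (adjusted p = 0.00944), without a filter (0.0115) and without shMPZL3 #1 replicate 1 (0.0241). MPZL3 itself differed in the same comparison by 1.28 (adjusted p = 5.72e-05). Single libraries decided some of these calls: TMPO lost its call without shMPZL3 #1 replicate 3 (0.103) and without shMPZL3 #2 replicates 1 (0.0845) and 2 (0.0679), SUN2 without shMPZL3 #1 replicate 3 (0.0776), and LMNB1 without shMPZL3 #2 replicate 1 (0.0514).

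Per kilobase of exon, BANF1 was the highest of the 9 genes in scr control, at 126 CPM per kilobase. It was followed by LMNB1 (74.2) and LMNA (72.7), which overlapped, then EMD (45.4), LMNB2 (42.9), TMPO (26.7), LBR (20.2), and SUN1 (12.4) and SUN2 (11.2), which overlapped. With shMPZL3 #1 the order changed: BANF1 (84.7) and LMNA (82.7) overlapped, EMD (49.6) and LMNB1 (37.7) overlapped, LMNB2 was at 24.4, and SUN2 (16.6) lay above TMPO (13.0), SUN1 (11.5) and LBR (9.16). LMNB1, which overlapped LMNA in scr control, lay below EMD within each shMPZL3 #1 library, and SUN2 lay above TMPO and LBR. With shMPZL3 #2 LMNB1 (54.7) lay between LMNA (76.3) and EMD (45.2) without overlap, and SUN2 (12.1), LBR (12.1) and SUN1 (11.7) overlapped. These levels rest on the merged exon length of all annotated transcripts of a gene.

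Other genes of the nuclear envelope were taken from lists written from general knowledge. Their counts stand beside those of all genes tested, of which 15.3% were lower and 16.8% higher with shMPZL3 #1, and 5.8% lower and 9.36% higher with shMPZL3 #2. Among 5 lamin processing enzymes none was called with shMPZL3 #1 by edgeR, by DESeq2 or at an unadjusted p under 0.05, and with shMPZL3 #2 only ZMPSTE24, the protease that matures prelamin A, was lower (-0.34, adjusted p = 0.0496). The ZMPSTE24 call was lost without any 1 of the scr control libraries, without shMPZL3 #1 replicate 1 or shMPZL3 #2 replicate 1 or 3, and with upper-quartile scaling or a minimum of 10 counts. Among 12 other LEM-domain and inner nuclear membrane genes, LEMD2 was higher (0.29, adjusted p = 0.0378) and NEMP1 lower (-0.39, adjusted p = 0.0131) with shMPZL3 #1, and 0 were called with shMPZL3 #2, also by DESeq2 and at an unadjusted p under 0.05. The LEMD2 call was lost without any 1 of the scr control libraries or shMPZL3 #1 replicate 3, and the NEMP1 call without scr control replicate 2 or shMPZL3 #1 replicate 3. Of 12 LINC partners and torsins tested, 2 were higher and 2 lower with shMPZL3 #1 (16.8% and 15.3% of all genes), and 1 was lower with shMPZL3 #2 (5.8% of all genes), shares near those of all genes. SYNE2, which encodes nesprin-2, an outer membrane partner of SUN1 and SUN2, was the 1 called with both, at -0.34 (adjusted p = 0.0442) and -0.52 (adjusted p = 0.00973). The 2 higher with shMPZL3 #1 were other SYNE genes, SYNE1 (2.56, adjusted p = 0.000676) and SYNE3 (1.05, adjusted p = 0.0104). Both were low in scr control, at 10.4 to 16.5 and 25.3 to 68.7 normalized counts. Neither was called with shMPZL3 #2 (adjusted p = 0.663 and 0.320). With shMPZL3 #1 the SYNE2 call was lost without scr control replicate 2 or 3, replicate 1 or 3 of either shRNA, with upper-quartile scaling or with a minimum of 10 counts. With shMPZL3 #2 it was lost without shMPZL3 #2 replicate 3 (adjusted p = 0.0813). The LINC count lower with shMPZL3 #1 was 0 without scr control replicate 2 or replicate 3 of either shRNA, with upper-quartile scaling or with the 10-count minimum. The medians of these 3 lists lay between -0.17 and 0.09 for both shRNAs.

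Nucleoporins, the subunits of the nuclear pore, moved more. With shMPZL3 #1, 24 of 32 were lower, where 15.3% of all genes were, and 0 higher (0 also by DESeq2 and at an unadjusted p under 0.05), and the median log2 change was -0.44. With shMPZL3 #2, 6 were lower, where 5.8% of all genes were, and 0 higher (1 by DESeq2 and 2 at an unadjusted p under 0.05; median -0.23), and all 6 were also lower with shMPZL3 #1. They included NUP35 (-0.84 and -0.59), NDC1 (-0.93 and -0.47), NUP160 (-0.57 and -0.36), AHCTF1 (-0.52 and -0.39) and SEH1L (-0.50 and -0.38 with shMPZL3 #1 and #2). NDC1 anchors the pore in the membrane, and AHCTF1 encodes ELYS, which starts pore assembly on chromatin. Leaving out shMPZL3 #2 replicate 3 brought the count for shMPZL3 #2 to 0. It was 2 without scr control replicate 1 or 2, 3 without shMPZL3 #2 replicate 1 and 10 without shMPZL3 #2 replicate 2.

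Of 14 genes of nuclear envelope breakdown and resealing, 4 were lower with shMPZL3 #1 (15.3% of all genes), and 1 was higher and 1 lower with shMPZL3 #2 (9.36% and 5.8% of all genes), the latter shares near those of all genes. CCNB1, the mitotic cyclin B1, was lower with both (-1.09 and -0.53). With shMPZL3 #2 CCNB1 missed the threshold when scr control replicate 2 (adjusted p = 0.0527) or shMPZL3 #2 replicate 3 (0.0871) was left out, and the count higher was 0 without scr control replicate 1 or 2 or shMPZL3 #2 replicate 1 or 3. Of 11 chromatin partners of the lamina, 6 were lower with shMPZL3 #1 and 3 with shMPZL3 #2, where 15.3% and 5.8% of all genes were. These 3 encode the heterochromatin proteins HP1γ (CBX3, -0.72 and -0.40), HP1α (CBX5, -0.60 and -0.32) and HP1β (CBX1, -0.37 and -0.37), and each was called with both shRNAs. The count with shMPZL3 #2 was 1 without scr control replicate 2 or 3 and without shMPZL3 #2 replicate 1 or 3. Among 10 other nuclear genes linked to senescence, 2 were higher and 6 lower with shMPZL3 #1 (16.8% and 15.3% of all genes). With shMPZL3 #2, 1 was higher and 3 lower (9.36% and 5.8% of all genes). The list medians were -0.50 and 0.0035. CDKN1A, the cell cycle inhibitor p21, was higher (1.03 and 1.22), and HMGB1 (-0.89 and -0.63), HMGB2 (-1.02 and -0.55) and HMGA2 (-0.68 and -1.12), all chromatin proteins, were lower with both shRNAs.

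**Figure D4:**
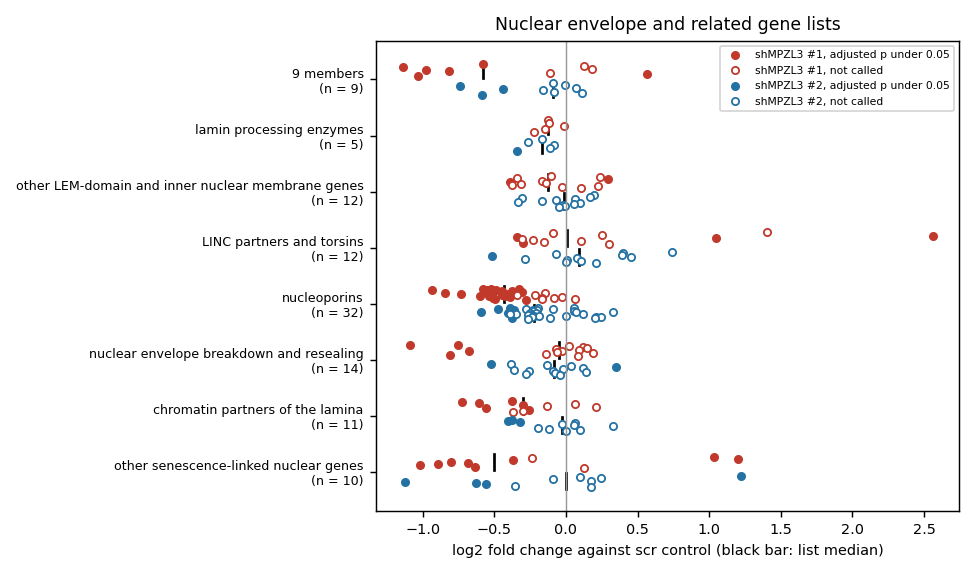
Log2 fold change against scr control (horizontal axis) of every tested gene of the 9 lamina genes and 7 related lists, with shMPZL3 #1 in red and shMPZL3 #2 in blue; filled points have an adjusted p under 0.05 and black bars are list medians. The nucleoporins lie mostly left of 0 with shMPZL3 #1 (median -0.44, 24 of 32 lower), and the lamin processing enzymes lie near 0.

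Cell cycle phase genes were set beside the lamina genes. Of 42 S phase genes of the Seurat package, 34 were lower with shMPZL3 #1 and 10 with shMPZL3 #2, and of 54 G2/M genes, 52 and 28 were lower, where 15.3% and 5.8% of all genes were. The S phase count with shMPZL3 #2 was 2, 1 and 5 without scr control replicates 1, 2 and 3, 4 and 1 without shMPZL3 #2 replicates 1 and 3, and 16 without shMPZL3 #1 replicate 3. The G2/M count was 15 without scr control replicate 2, and 18 and 11 without shMPZL3 #2 replicates 1 and 3. LBR and TMPO belong to that G2/M list and LMNB1 does not. Of the other 52 G2/M genes, 50 were lower with shMPZL3 #1 and 26 with shMPZL3 #2. In single libraries, the median G2/M gene lay below the scr control mean by a log2 difference of -0.52, -0.71 and -1.02 in shMPZL3 #1 replicates 1 to 3, and of -0.39, -0.32 and -0.55 in shMPZL3 #2 replicates 1 to 3. The differences of LBR in the same libraries were -0.85, -1.05 and -1.60, and -0.75, -0.55 and -0.94. Those of LMNB1 were -0.65, -1.02 and -1.33, and -0.37, -0.53 and -0.43. Thus shMPZL3 #1 replicate 3 was lowest for the phase genes as well as for LBR, TMPO and LMNB1. Within shMPZL3 #2, LBR, TMPO and the G2/M median were lowest in replicate 3. LMNB1 was lowest there in replicate 2 (-0.53), where the G2/M (-0.32) and S phase (-0.14) medians were least lowered. The part of the phase genes in the fall of LBR, TMPO and LMNB1 was not tested.

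**Figure D5:**
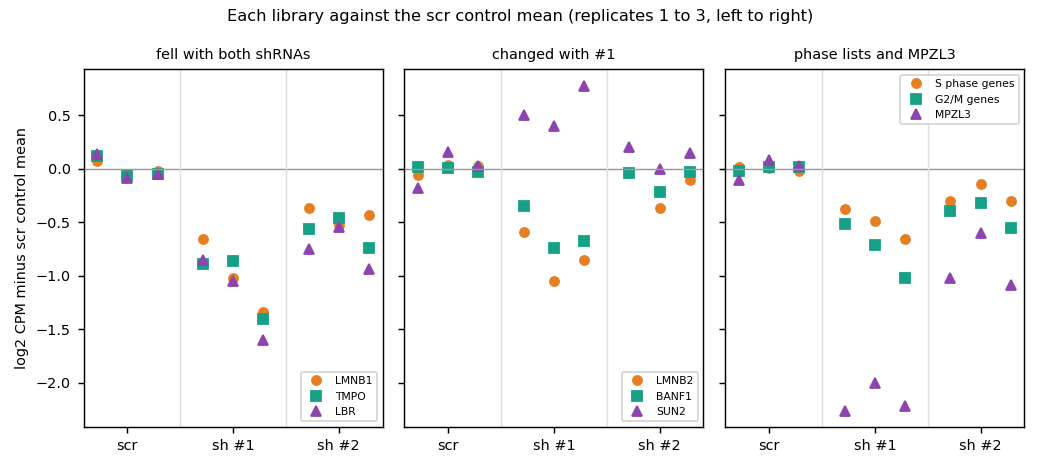
Log2 CPM of each library minus the scr control mean (vertical axis; replicates 1 to 3 from left to right in each group) for the genes that fell with both shRNAs, for those that changed with shMPZL3 #1, and for MPZL3 with the medians of the S phase and G2/M genes (LBR and TMPO left out). LBR reaches -1.60 and the G2/M median -1.02 in shMPZL3 #1 replicate 3.

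Across the 9 libraries, log2 levels of LBR and TMPO had a Pearson r of 0.99, LMNB2 and BANF1 of 0.99, LMNB1 and TMPO of 0.95, and TMPO and SUN2 of -0.90. LMNA and LMNB1 had -0.32. Among 6060 protein-coding genes whose log2 CPM averaged 5 or more, those most like LMNB1 were RPL4 (r = 0.998), XRCC6, NCL, MYH10 and FAM83D (r = 0.992 each). Those most like LMNA were CENPB (0.978), TSR3 (0.968), RAB5IF (0.962), CD151 (0.960) and WDR1 (0.956). These coefficients describe 9 libraries that share cells, kit and 3 groups, and they carry no test.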

How the data were processed

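Poly-A selected libraries without strand information were made from 9 OVCAR4 samples. The submitters' processing notes name hg38, HISAT2 2.0.5 and featureCounts 1.5.0-p3. The authors deposited 1 table of raw read counts, neither normalized nor pooled over replicates. The annotation is not given in the sources used here. All 58735 genes matched GENCODE release 29 in identifier and position.

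The deposited counts were analysed with edgeR 4.0.16 and limma 3.58.1 in R 4.3.3, and with Python 3.11.15. After filterByExpr on the 3 groups, 16928 genes were tested with TMM scaling and two-sided quasi-likelihood tests, with Benjamini-Hochberg adjustment over all of them. Calls were made at an adjusted p-value under 0.05. The grouped comparison treats both shRNAs as 1 condition. A fit of 3 groups gave each shRNA against scr control and the shRNAs against each other. Log2 CPM used a prior count of 2, and levels per kilobase the length column of the table. Phase genes came from Seurat 5.3.0.

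Named are the 9 genes, MPZL3, and of every other list up to 5 genes called with both shRNAs in 1 direction (in a list with none, up to 2 called with 1 shRNA), by size of the grouped change, and the 5 genes most like LMNB1 and LMNA. SYNE1 and SYNE3 were named in addition, since they were called opposite to SYNE2 with shMPZL3 #1. The 9 genes and all lists were chosen with earlier results of these data known. In counts simulated from these libraries for the grouped comparison, over 16520 genes, 30 of 61 genes with a 1.5-fold and 59 of 72 with a 2-fold change were called, and 8 of 16330 unchanged genes. For shMPZL3 #1 alone 25 of 61 and 50 of 72 were called, and for shMPZL3 #2 alone 21 and 55. The simulation gave both shRNAs the same change and used the spread of the 3-group fit. The grouped rates therefore do not cover genes on which the shRNAs differ. The smallest permutation p is 0.1 for 3 against 3 libraries. Replicate numbers were not taken to pair libraries, since the labels tie no number to a shared batch. In log2 CPM minus the group mean, same-numbered libraries correlated from -0.0014 to 0.22. Between the shRNAs these values were 0.137, 0.218 and 0.0966, against -0.147 to 0.0038 for different numbers. A replicate effect shared by the shRNAs was not tested. Alternatives were DESeq2 1.42.0, RLE and upper-quartile scaling, no filter, at least 10 counts in every library, a replicate block, the mean of both shRNA contrasts, and leaving out each library.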

Additional observations from a re-analysis of the deposited data

Results flagged for a closer look

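The effect of the shRNAs differed in a direct test of shMPZL3 #2 against shMPZL3 #1 for 5 of the 9 genes (edgeR quasi-likelihood test with Benjamini-Hochberg adjustment). In that test 7.56% of all genes were higher and 7.56% lower. The log2 difference was 0.54 ± 0.13 (SE) for LMNB1, 0.66 ± 0.12 for LMNB2, 0.45 ± 0.13 for TMPO, 0.48 ± 0.11 for BANF1 and -0.45 ± 0.12 for SUN2. In every library of shMPZL3 #1, LMNB1, LMNB2, TMPO and BANF1 lay below and SUN2 above all libraries of shMPZL3 #2. The share of all genes separated in this way was not determined. MPZL3 was lower with shMPZL3 #1 than with shMPZL3 #2 in the same libraries, and its part in these differences was not tested.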

How the results depend on the processing

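LBR and TMPO kept their direction and their call in the grouped and both single-shRNA comparisons under every alternative, with grouped log2 fold changes from -1.02 to -0.82 and from -0.87 to -0.70. LMNB1 kept its direction in all of these, and with shMPZL3 #1 its call. LMNB2, BANF1 and SUN2 kept their call with shMPZL3 #1 under every alternative. With the mean of both shRNA contrasts in place of the pooled group, 1 of the 9 genes was higher and 5 were lower in the grouped comparison, since LMNB2 (adjusted p = 0.00180), BANF1 (0.0130) and SUN2 (0.0217) were then called. LMNB2 was also called there without a filter (0.0127) and without shMPZL3 #2 replicate 1 (0.0432). LBR differed between the shRNAs without a filter (0.0115) and without shMPZL3 #1 replicate 1 (0.0241).

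Leaving out single libraries gave 2 to 4 of the 9 genes lower in the grouped comparison, where 172 to 1450 of all genes were lower. With shMPZL3 #1, 1 to 2 were higher (1994 to 2992 of all genes), and with shMPZL3 #2, 2 to 3 were lower (354 to 1388). With shMPZL3 #2, 2 to 5 were higher than with shMPZL3 #1 (667 to 1521 of all genes) and 0 to 1 lower (798 to 1432). Values near 0 changed sign. For EMD with shMPZL3 #2 the log2 fold change was 0.011 with at least 10 counts in every library, 0.00 without scr control replicate 2, 0.01 without shMPZL3 #1 replicate 1 and 0.044 without shMPZL3 #2 replicate 2, and from -0.051 to 0.044 over all libraries left out. For LMNA with shMPZL3 #2 it was -0.0050 without shMPZL3 #2 replicate 1, and at most 0.18 without any other. For SUN1 between the shRNAs it was -7.70e-05 with upper-quartile scaling, -0.01 without shMPZL3 #1 replicate 3 and -0.036 without shMPZL3 #2 replicate 2, and at most 0.078 without any other.

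With the replicate block, the 9 genes gave 5 lower and 1 higher with shMPZL3 #1, 3 lower with shMPZL3 #2 and 3 lower in the grouped comparison, as without it, and 5 rather than 4 higher with shMPZL3 #2 than with shMPZL3 #1, through LBR (adjusted p = 0.00944). Over all genes the block moved the count lower with shMPZL3 #2 from 982 to 1597 and the count higher between the shRNAs from 1279 to 2015. The mean of both contrasts moved the grouped counts from 1584 to 2479 higher and from 1083 to 2198 lower. Without scr control replicate 1 they were 453 and 172. With the block, 10 rather than 6 nucleoporins and 17 rather than 10 S phase genes were lower with shMPZL3 #2, as were 3 rather than 1 genes of envelope breakdown and resealing. The cause of these shifts was not tested. Depth limited none of the 9 genes, which had at least 758 counts in every library, so that the spread among 3 replicates sets the precision.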
